A study of Mus musculus with 16 samples.

Results

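The genes described are 10 regulators of the G1 phase of the cell cycle: the D cyclins Ccnd1, Ccnd2 and Ccnd3, their kinases Cdk4 and Cdk6, the kinase inhibitors Cdkn1a, Cdkn1b and Cdkn2c, the retinoblastoma gene Rb1 and the transcription factor gene E2f1. They were chosen by name and were measured by 23 probe sets that are annotated to a single one of these symbols, among 12394 genes and 22690 probe sets on the array. Each gene is represented by its brightest probe set over all arrays, and its other probe sets were used as a check. The RNA came from tumour-associated macrophages, sorted as CD11b+ Gr1- cells, of 16 glioma-bearing mice with 1 array per mouse. In 8 mice the agent was BLZ945, which blocks the kinase of the CSF-1 receptor and is labelled as 200 mg without a body weight. In the other 8 mice it was the vehicle, 20% captisol, and both were given daily by gavage for 7 days. Both groups were Nestin-Tv-a;Ink4a/Arf-/- mice of mixed background whose tumours were started by intracranial DF-1 cells that release RCAS-PDGF-B-HA, a retrovirus that infects cells with the Nestin-driven receptor. The BLZ945 group held 4 mice of 11.29 weeks and 4 of 13.14 weeks, 5 of the 8 female. The Vehicle group held 4 mice of 11.29, 2 of 11.43 and 2 of 12.29 weeks, 4 of them female.

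A cell that receives a growth signal makes D cyclins, which bind and activate CDK4 and CDK6. These kinases phosphorylate the retinoblastoma protein, which then lets go of E2F factors, and the E2F factors switch on genes for DNA synthesis. Inhibitors of the INK4 family, among them the product of Cdkn2c, bind CDK4 and CDK6 directly. The CIP/KIP proteins p21 (Cdkn1a) and p27 (Cdkn1b) act mainly on cyclin E and cyclin A complexes. In mouse macrophages D cyclins were isolated as genes induced by CSF-1, the ligand of the receptor that BLZ945 inhibits. Ink4a/Arf is Cdkn2a, so the INK4 inhibitor p16 and the p53 activator Arf are missing from the mice of both groups.

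The arrays correlated between 0.937 and 0.991 over probe sets. The mean log2 level of 11 macrophage and microglia markers was 11.76 to 12.19 in BLZ945 and 11.90 to 12.33 in Vehicle. Of these 1 fell, Itgam, the CD11b gene used for the sort (-1.17, adjusted p = 0.00807), and 0 rose. Markers of other cells were not all dim. The mean of 11 glioma and oligodendrocyte precursor markers was 4.74 to 6.44 in BLZ945 and 6.03 to 7.77 in Vehicle. Of these 11, 5 fell and 0 rose, among them Pdgfra, the PDGF receptor (-2.71, adjusted p = 0.000441, and -1.66 averaged over its probe sets), and Fabp7, a lipid carrier of glial progenitors (-2.76, adjusted p = 0.000995). Their summed level on the linear scale was 447 to 1607 in BLZ945 and 927 to 4035 in Vehicle, and 0 of the 11 lay in the dimmest 25% of genes. The 5 neuron markers all lay in that dimmest part. The mean of 5 oligodendrocyte markers was 6.60 to 8.39 in BLZ945 and 6.88 to 7.71 in Vehicle, so such RNA was present in both groups. None of the measured oligodendrocyte, neuron, endothelial, neutrophil or T and NK cell markers passed, and 1 of 5 astrocyte markers fell. Of those that did not pass, the T and NK cell marker Gzma was close to the threshold (1.83, adjusted p = 0.0506). The mean of 4 proliferation markers, Mki67, Top2a, Bub1 and Cdk1, was 4.77 to 7.78 in BLZ945 and 7.54 to 9.21 in Vehicle, and 4 of 4 fell. The labelled initial tumour volume, given without a unit, was 41.3 to 132.3 in the BLZ945 mice and 11.9 to 27.3 in the 6 Vehicle mice that have one, so volume and agent cannot be told apart. The protocol enrolled tumours of 4.5 to 40 mm3. If the label is in that unit, each BLZ945 mouse lies above the limit, so what the label measures is uncertain. Adjusted p-values here and below come from limma with Benjamini-Hochberg adjustment over all 12394 genes, and a gene is said to have risen or fallen only where this is under 0.05. Nothing in the labels says that mice came from separate litters or days, so p-values measure the spread between these mice.

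Of the 10 G1 genes, 4 fell with BLZ945, 0 rose and 6 did not pass the test. Ccnd2 and Ccnd1 showed the largest differences, 4.50-fold and 3.46-fold lower in BLZ945, followed by Cdkn2c and Cdk4 at 1.64-fold and 1.57-fold lower. Ccnd3, Cdk6, Cdkn1a, Cdkn1b, Rb1 and E2f1 did not pass. Over all genes 5.34% fell, 2.6% rose and 7.94% passed in either direction. The median difference of the 10 genes was -0.22 on the log2 scale with 7 below 0, and that of all 12394 genes was 0.07 with 4818 below 0. The values of the 2 groups did not overlap for 1 of the 10, Ccnd1, and for 1.36% of all genes. In sorted cells measured in bulk, fewer cells of a type and less RNA per cell cannot be told apart.

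**Figure D1:**
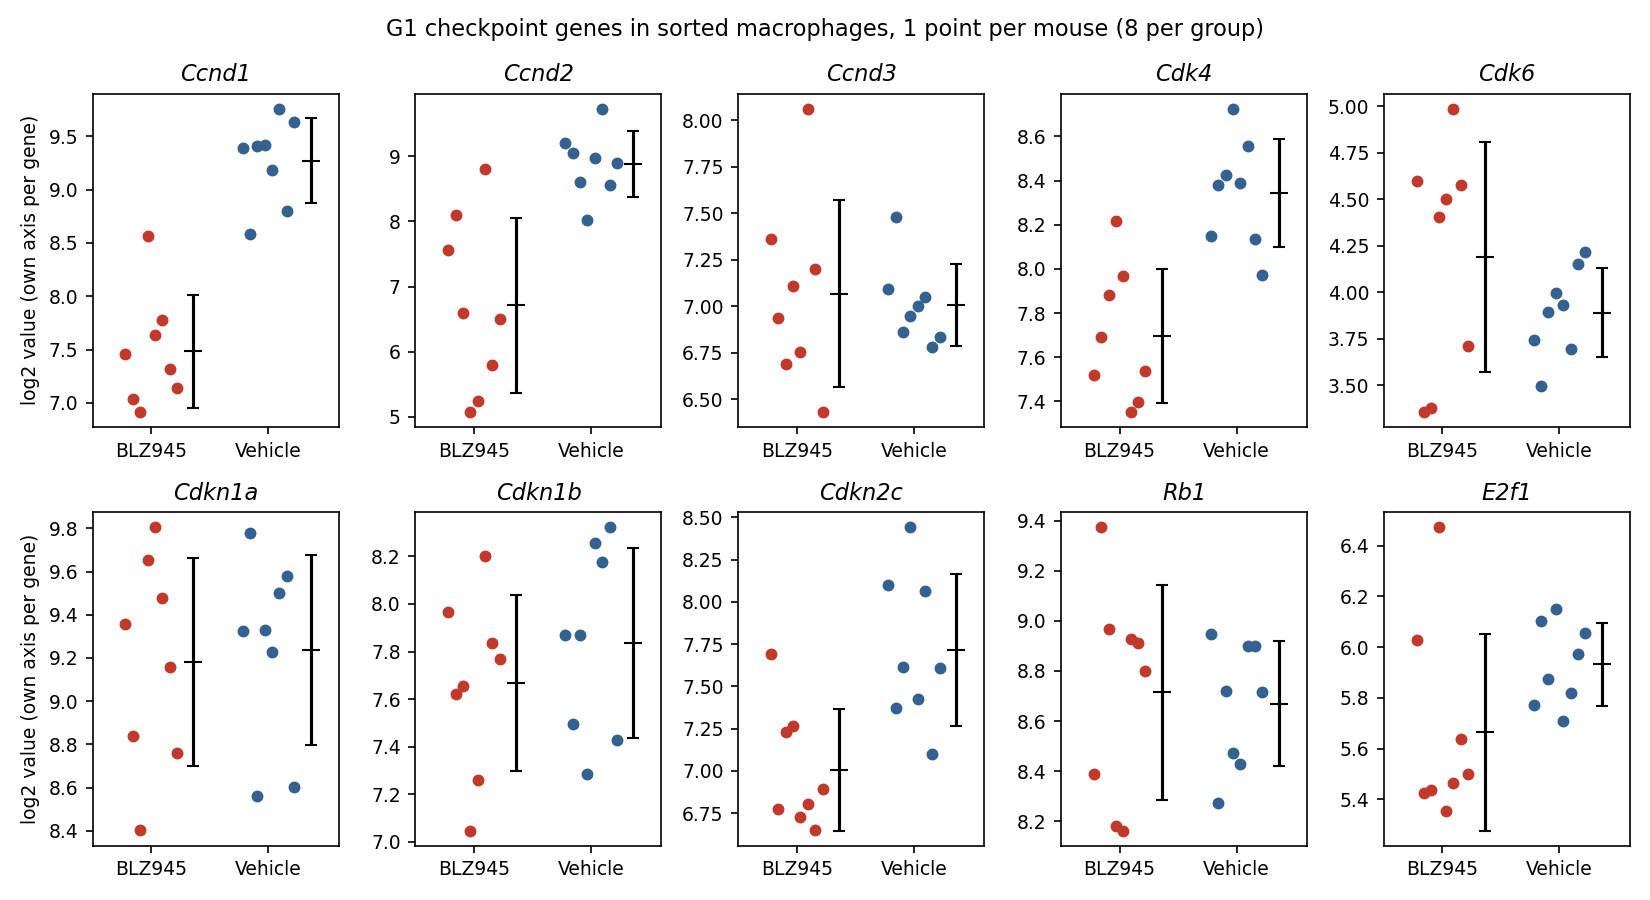
Log2 level of each of the 10 genes in every mouse, BLZ945 (left) and Vehicle (right) in each panel, with the bar at the mean of 8 mice. The BLZ945 points of Ccnd1 all lie below the Vehicle points, those of Ccnd2 spread from 5.07 to 8.81, and those of Cdkn1a and Rb1 lie within or around the Vehicle range.

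Ccnd1 encodes cyclin D1, the D cyclin most often linked to growth factor signalling. Its log2 level ran from 6.91 through a median of 7.39 to 8.57 in the 8 BLZ945 mice, against 8.59, 9.40 and 9.76 in the 8 Vehicle mice. Every BLZ945 mouse was below every Vehicle mouse, although the highest BLZ945 mouse, replicate 4, came close to the lowest Vehicle mouse, replicate 2. The means were 7.48 ± 0.53 in BLZ945 and 9.27 ± 0.40 in Vehicle (SD, n = 8 each), a difference of -1.79 ± 0.22 (SE) with limma's adjusted p = 0.000113. On the linear scale Ccnd1 was 3.46-fold lower in BLZ945, with a 95% interval of 2.53 to 4.73. The exact two-sided permutation p was 0.000155, the smallest that the 12870 labellings of the mice can give. All 3 Ccnd1 probe sets fell, with differences of -1.79, -1.58 and -1.57. The groups overlapped in the last of these, where BLZ945 replicate 4, at 7.61, was above the lowest Vehicle mouse, at 7.30.

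Ccnd2 encodes cyclin D2, which many blood cells use. Its level ran from 5.07 through a median of 6.55 to 8.81 in BLZ945 mice, against 8.02, 8.93 and 9.73 in Vehicle mice. In 6 of 8 BLZ945 mice it was below every Vehicle mouse, and in the other 2 it lay within the Vehicle range. The means were 6.71 ± 1.35 in BLZ945 and 8.88 ± 0.51 in Vehicle (SD, n = 8 each), so the SD in BLZ945 was 2.66 times that in Vehicle. The difference was -2.17 ± 0.45 (SE, limma's adjusted p = 0.00514), or 4.50-fold lower in BLZ945 with a 95% interval of 2.35 to 8.63. Of 7 Ccnd2 probe sets, 6 fell, with differences of -2.17 to -1.27. The 7th differed by -0.08 and was dim, with a mean of 2.85 at percentile 3.99 of the genes' means.

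Ccnd3, cyclin D3, had levels of 6.43, 7.02 and 8.06 (lowest, median and highest) in BLZ945, against 6.78, 6.97 and 7.48 in Vehicle. The BLZ945 mice lay on both sides of the Vehicle range, 3 below it and 1 above. The means were 7.07 ± 0.50 in BLZ945 and 7.01 ± 0.22 in Vehicle (SD, n = 8 each), and the difference was 0.06 with a 95% interval of -0.32 to 0.45 (limma's adjusted p = 0.854). Ccnd3 has 1 probe set, so no second measurement of it was available.

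**Figure D2:**
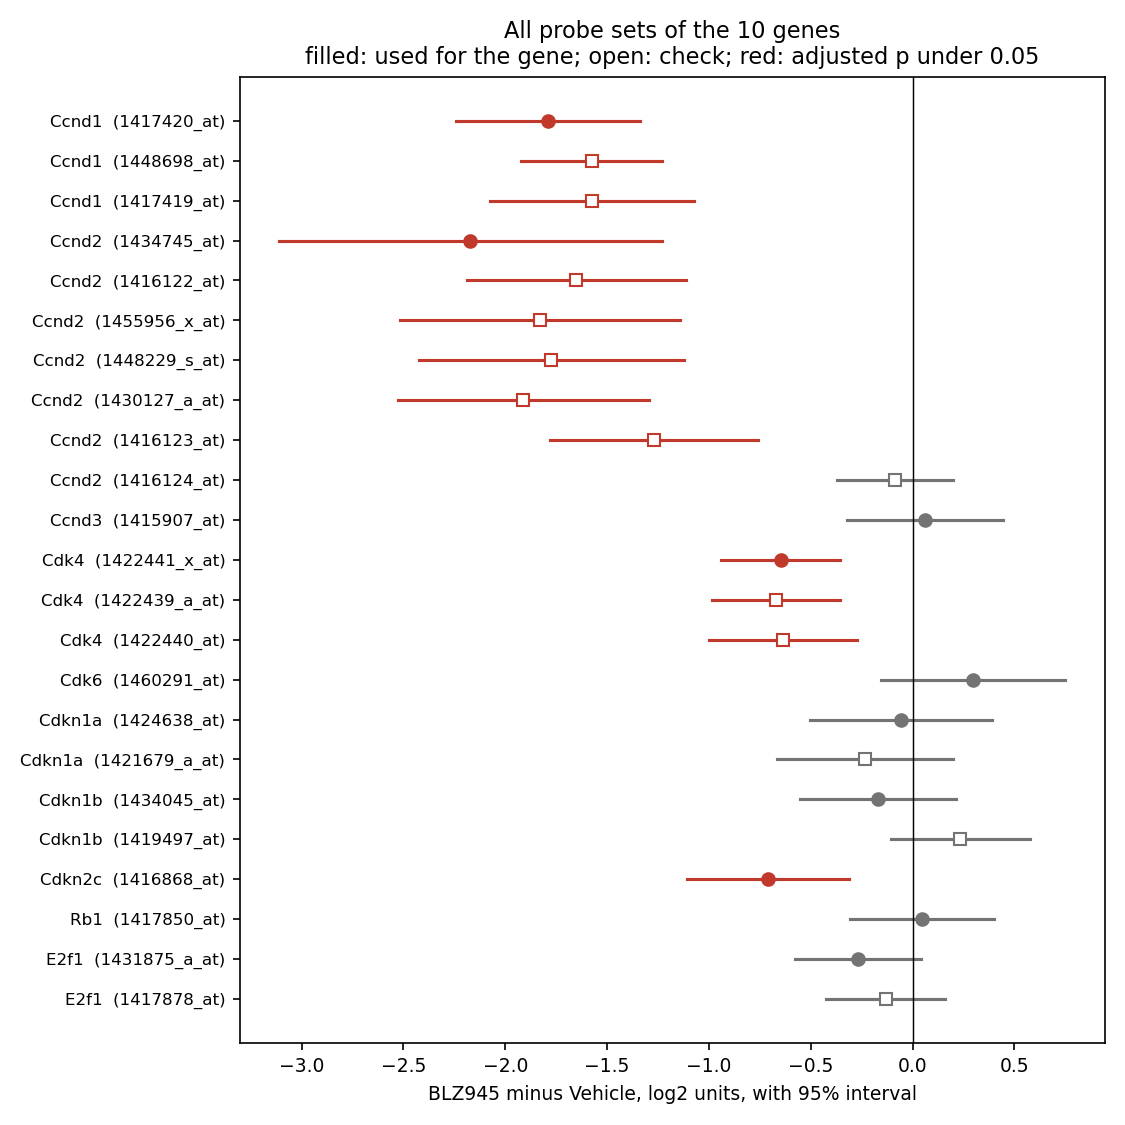
Difference BLZ945 minus Vehicle in log2 units for each of the 23 probe sets, with 95% intervals from limma. The Ccnd1 and Cdk4 probe sets and 6 of the 7 for Ccnd2 have intervals that lie wholly below 0, and those of Cdkn1a, Cdkn1b and E2f1 have intervals that include 0.

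Cdk4 is the kinase that D cyclins switch on in most cell types. Its level was 7.35, 7.61 and 8.22 (lowest, median and highest) in BLZ945 and 7.97, 8.39 and 8.73 in Vehicle. In 7 of 8 BLZ945 mice it was below every Vehicle mouse. The exception was replicate 4, which also had the highest Ccnd1 of its group and the highest E2f1 in the brightest E2f1 probe set. The means were 7.70 ± 0.30 in BLZ945 and 8.34 ± 0.24 in Vehicle (SD, n = 8 each), a difference of -0.65 ± 0.14 (SE) with limma's adjusted p = 0.00706. That is 1.57-fold lower in BLZ945, with a 95% interval of 1.28 to 1.92. All 3 Cdk4 probe sets fell, with differences of -0.67 to -0.64. The dimmer ones overlapped more. In 1 of them BLZ945 replicates 2 and 4, at 7.75 and 7.79, were above the lowest Vehicle mouse, at 7.61. In the dimmest, replicates 2, 3 and 4, at 7.20, 7.37 and 7.69, were above the lowest Vehicle mouse, at 7.12.

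The Cdk4 promoter from RefSeq is shown because it carries several copies of the E-box CACGTG, the sequence bound by Myc and related factors. The window is chr10:127063285-127063584 on the + strand of GRCm38.p6, 250 bases before to 50 bases after the start, with the 4 matches in capitals.
Cdk4: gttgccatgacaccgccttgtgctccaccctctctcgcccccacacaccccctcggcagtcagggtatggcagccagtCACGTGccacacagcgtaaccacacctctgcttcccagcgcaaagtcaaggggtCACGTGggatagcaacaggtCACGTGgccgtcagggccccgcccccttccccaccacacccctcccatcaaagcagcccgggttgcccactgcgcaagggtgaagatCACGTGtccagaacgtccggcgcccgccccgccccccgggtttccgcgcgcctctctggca
The matches begin 172, 118, 98 and 11 bases before the start. CACGTG reads the same on both strands. It occurred at least once in 7.15% of 32851 promoter windows of this length, and at least 4 times in 8 of them, 0.0244%. The motif was chosen with the sequence in view, and a match is a run of letters, not evidence of binding. Promoters were found for 7 of the 10 genes, in 10 windows. Of the other windows, 1 of Cdk6 and 1 of Cdkn2c had a single CACGTG each, and the cyclic AMP response element TGACGTCA was in none of the 10 windows, against 1.79% of all.

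Cdk6, the close relative of Cdk4, was dim, with its mean over all arrays at percentile 20.2 of the genes' means. Its level was 3.36, 4.45 and 4.99 (lowest, median and highest) in BLZ945 and 3.50, 3.91 and 4.22 in Vehicle. The BLZ945 mice lay on both sides of the Vehicle range, 5 above it and 2 below. The means were 4.19 ± 0.62 in BLZ945 and 3.89 ± 0.24 in Vehicle (SD, n = 8 each), and the difference of 0.30 had a 95% interval of -0.15 to 0.75 (limma's adjusted p = 0.417). RMA compresses differences of dim probe sets.

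Cdkn2c encodes p18, an INK4 inhibitor that the Ink4a/Arf deletion leaves in place. Its level was 6.65, 6.85 and 7.69 (lowest, median and highest) in BLZ945 and 7.10, 7.61 and 8.44 in Vehicle, and 5 of 8 BLZ945 mice were below every Vehicle mouse. The means were 7.01 ± 0.36 in BLZ945 and 7.72 ± 0.45 in Vehicle (SD, n = 8 each), a difference of -0.71 ± 0.19 (SE) with limma's adjusted p = 0.0262. That is 1.64-fold lower in BLZ945, with a 95% interval of 1.24 to 2.16. Leaving out BLZ945 replicate 5 or 7, or Vehicle replicate 1, 4 or 6, took limma's adjusted p to between 0.0514 and 0.0585, so the call on Cdkn2c rests on each of these 5 mice.

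The Cdkn2c promoter from RefSeq that follows is shown because it was the only 1 of the 10 windows with an E2F core, here TTCCCGC, or the same word with CG, GC or GG as its bases 3 and 4, on either strand. The window is chr4:109666707-109667006 on the - strand of GRCm38.p6, printed in the direction of the gene, with the match in capitals.
Cdkn2c: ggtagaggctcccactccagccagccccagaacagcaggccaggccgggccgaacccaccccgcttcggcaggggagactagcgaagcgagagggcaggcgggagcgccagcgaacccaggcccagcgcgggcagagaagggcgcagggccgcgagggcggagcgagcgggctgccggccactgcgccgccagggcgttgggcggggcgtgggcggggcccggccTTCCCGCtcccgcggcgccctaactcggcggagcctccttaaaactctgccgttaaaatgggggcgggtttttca
The match, TTCCCGC, begins 25 bases before the start. At least 1 such core was in 9.57% of the 32851 windows, and these words too were chosen with the sequence in view. Nothing is drawn from the windows without one.

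The CIP/KIP inhibitors did not pass the test. Cdkn1a, p21, had levels of 8.40, 9.26 and 9.81 (lowest, median and highest) in BLZ945 and 8.56, 9.33 and 9.78 in Vehicle, ranges that nearly coincide. The difference was -0.06 with a 95% interval of -0.50 to 0.39 (limma's adjusted p = 0.890), and its other probe set differed by -0.23. Cdkn1b, p27, had levels of 7.05, 7.71 and 8.20 in BLZ945 and 7.29, 7.87 and 8.32 in Vehicle, again overlapping. Its difference was -0.17 with a 95% interval of -0.55 to 0.21 (limma's adjusted p = 0.589). The dimmer Cdkn1b probe set had the opposite sign, 0.24, and did not pass either. These intervals exclude a fall of the size seen for Ccnd1 or Ccnd2. The probe set of Cdkn2a itself was at 2.92 to 3.66 in BLZ945 and 2.84 to 3.38 in Vehicle, low in both groups. Whether it lies in the deleted exons is not known from the sources used here.

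Rb1 encodes the retinoblastoma protein, the substrate of the cyclin D kinases. Its level was 8.16, 8.85 and 9.37 (lowest, median and highest) in BLZ945 and 8.27, 8.72 and 8.95 in Vehicle, with 2 BLZ945 mice below and 2 above the Vehicle range. The difference was 0.04 with a 95% interval of -0.31 to 0.40 (limma's adjusted p = 0.889). E2f1, an activating E2F factor, had levels of 5.36, 5.48 and 6.47 in BLZ945 and 5.71, 5.92 and 6.15 in Vehicle. In 6 of 8 BLZ945 mice E2f1 was below every Vehicle mouse, but BLZ945 replicate 4 was above every one of them. The means were 5.67 ± 0.39 in BLZ945 and 5.93 ± 0.16 in Vehicle (SD, n = 8 each), and the difference of -0.27 had a 95% interval of -0.58 to 0.04 (limma's adjusted p = 0.298, exact permutation p = 0.0934). The other E2f1 probe set, about as bright, differed by -0.13 and did not show this pattern. On it the BLZ945 mice were at 5.33 to 6.16 and the Vehicle mice at 5.50 to 6.29. Most BLZ945 mice lay inside the Vehicle range there, replicate 4 among them at 5.97.

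The 4 falls held to different degrees in subsets of the mice. Only the age of 11.29 weeks holds both agents, with 4 mice each. Among those mice Ccnd1 passed, and 0.718% of all genes did. There Ccnd1 differed by -1.99 (limma's adjusted p = 0.0115), Cdk4 by -0.84 (0.0647), Ccnd2 by -1.06 (0.330) and Cdkn2c by -0.63 (0.371). With each labelled age as a covariate Ccnd1 and Cdk4 passed (limma's adjusted p = 0.00453 and 0.0438), Ccnd2 and Cdkn2c did not (0.251 and 0.293), and 1.73% of all genes did. That fit compares the agents in the same mice of 11.29 weeks and gives the same differences, so it is not a separate check. The other mice enter only its estimate of the spread. With the glioma marker mean as a covariate Ccnd1 alone passed, at -1.59 (limma's adjusted p = 0.00814), and 2.11% of all genes did. In that fit Ccnd2 differed by -2.02 (0.111), Cdk4 by -0.45 (0.280) and Cdkn2c by -0.49 (0.435). How far RNA of tumour cells enters these 4 differences was not tested beyond this fit. Ccnd1 and Ccnd2 passed in the 9 females, where 3.17% of all genes did, and none of the 10 passed in the 7 males, where 2 genes (0.0161%) did. In the males Ccnd1 differed by -1.62, Cdk4 by -0.93 and Cdkn2c by -0.84. In the females these differences were -2.003, -0.45 and -0.69. Ccnd2 differed by -2.91 in females and by -1.09 in males.

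The wide spread of Ccnd2 within BLZ945 went with the ages of the mice. The 4 mice of 13.14 weeks had Ccnd2 levels of 5.07 to 6.51, and the 4 of 11.29 weeks 6.60 to 8.81, with no overlap. The Vehicle mice of 11.29 weeks had 8.02 to 9.73 and the other Vehicle mice 8.60 to 9.21. The age difference in BLZ945, older minus younger, was -2.11 ± 0.44 (SE), with an unadjusted p of 0.000559 but limma's adjusted p = 0.141, so it did not pass over all genes. The exact two-sided permutation p for Ccnd2 was 0.0286, the smallest that 70 labellings can give, a value that the lack of overlap fixes. All 10 genes were permuted this way without adjustment, and the others had exact permutation p of 0.143 to 0.771. Among the 7 Ccnd2 probe sets, 6 were lower in the older mice, with differences of -2.11 to -0.72. Not all of these separated the ages. The younger mice began at 5.54, 4.73 and 3.73 in probe sets where the older mice reached 5.56, 5.37 and 4.26. Ccnd1 had the opposite sign, at 7.14 to 8.57 in the older and 6.91 to 7.78 in the younger BLZ945 mice, a difference of 0.37 (limma's adjusted p = 0.513). None of the 10 genes passed in this fit, and 0.0403% of all genes did, with 2312 genes at an unadjusted p under 0.05. No Vehicle mouse was 13.14 weeks old, so age and agent cannot be told apart in those 4 mice. Proliferation markers moved with the same split, at 4.77 to 5.97 in the older and 6.00 to 7.78 in the younger BLZ945 mice. The glioma marker means overlapped, at 4.74 to 6.44 and 5.06 to 6.42. The part of either in the Ccnd2 values was not tested.

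**Figure D3:**
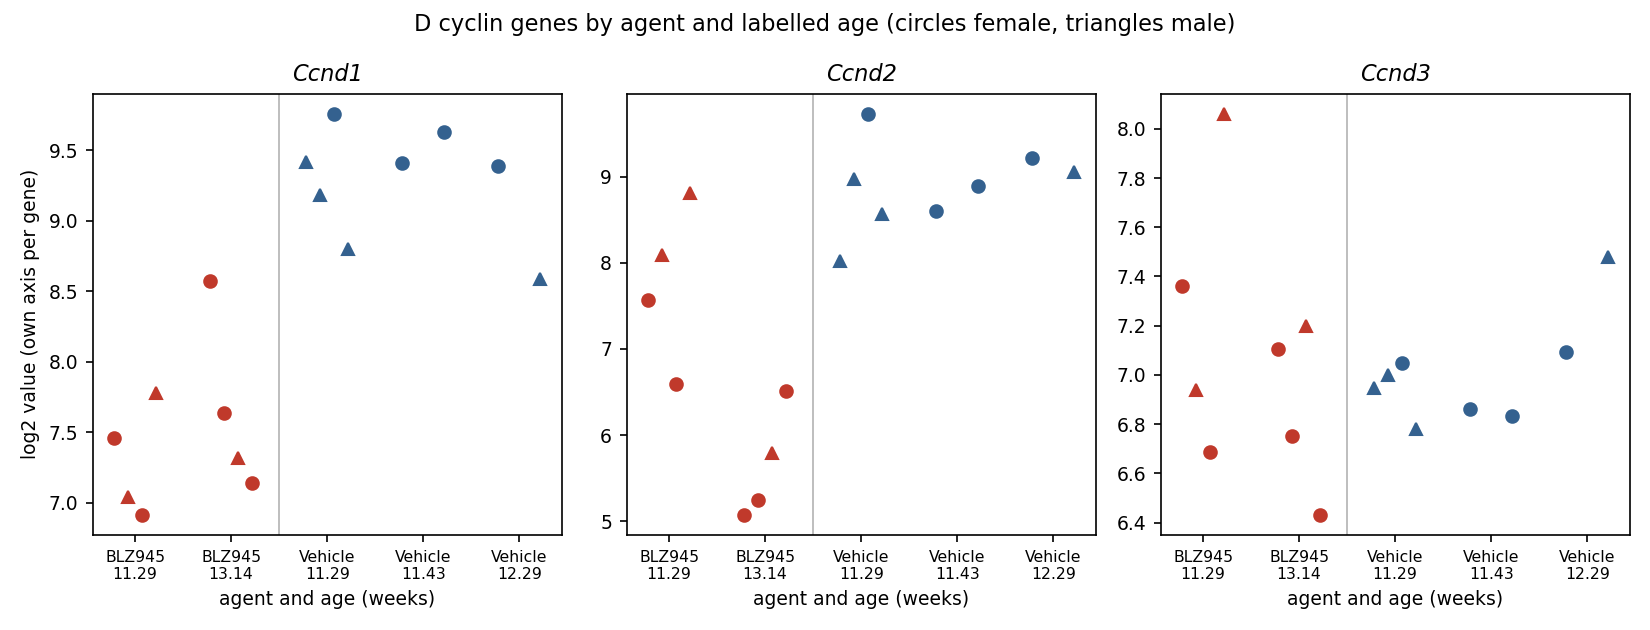
Log2 levels of the D cyclins by agent and age of the mouse. Each BLZ945 age and the Vehicle age of 11.29 weeks hold 4 mice, and each of the other Vehicle ages holds 2. For Ccnd2 the BLZ945 mice of 13.14 weeks (5.07 to 6.51) lie below those of 11.29 weeks (6.60 to 8.81), and for Ccnd1 the 2 ages overlap.

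Sex and tumour volume gave no member past the test. Between females and males, with the agent as covariate, limma's adjusted p-values of the 10 genes were 0.536 to 0.870, and 0.0323% of all genes passed. The interaction of agent and sex was passed by 0% of genes, with 414 at an unadjusted p under 0.05. Among these were 2 of the 10, Rb1 and Ccnd2. Rb1 was at 8.50 ± 0.37 in 5 BLZ945 females and 9.07 ± 0.26 in 3 BLZ945 males, against 8.82 ± 0.12 in 4 Vehicle females and 8.52 ± 0.27 in 4 Vehicle males (SD). The agent difference of Rb1 in females minus that in males was -0.87 ± 0.29 (SE, limma's adjusted p = 0.983). For Ccnd2 it was -1.83 ± 0.82 (SE, unadjusted p = 0.0404, limma's adjusted p = 0.983), in a fit without age, although the BLZ945 sexes differ in age mix. The slope on log2 of the labelled tumour volume within BLZ945 was passed by 0% of genes, with 846 at an unadjusted p under 0.05, and limma's adjusted p-values of the 10 genes were 0.711 to 0.994.

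Genes on either side of the D cyclins were counted in 8 lists that leave the 10 genes out. In the cyclin E and cyclin A module, which takes over late in G1 and drives S phase and mitosis, 5 of 7 measured genes fell and 0 rose, with a median difference of -1.13. Ccne2, cyclin E2, was at 2.99 to 4.02 in BLZ945 and 4.63 to 6.94 in Vehicle, without overlap (-2.40, limma's adjusted p = 5.62e-05). Ccna2, Ccnb2 and Cdk1, which act in S phase and mitosis, fell, with differences of -2.26, -2.18 and -1.13. Among 22 E2F target genes, which encode replication proteins, 20 fell and 0 rose, with a median of -1.26. Their mean level was 6.32 ± 0.25 in BLZ945 and 7.58 ± 0.34 in Vehicle (SD, n = 8 each). Lig1, DNA ligase 1, was at 6.71 to 7.43 in BLZ945 and 8.08 to 8.79 in Vehicle (-1.41, limma's adjusted p = 8.26e-06). Mcm5, Cdc6 and Cdc45, which license and start replication origins, fell, with differences of -2.13, -1.87 and -1.02. Values of the groups did not overlap for 13 of the 22, all lower in BLZ945, against 1.36% of all genes. The proliferation markers, of which Cdk1 is counted in both lists, and the glioma markers given above were lower in the same mice.

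Smaller medians were seen in the lists of other regulators. Of 8 measured pocket proteins, E2F and DP factors other than Rb1 and E2f1, 4 fell and 0 rose, with a median of -0.29. E2f8, an atypical E2F that represses, was at 3.72 to 5.16 in BLZ945 and 5.34 to 6.72 in Vehicle (-1.44, limma's adjusted p = 0.00111). Tfdp1, the partner that E2F factors need to bind DNA, fell by 0.79 on the log2 scale. E2f6, a repressor, and Rbl1, the pocket protein p107, fell, with differences of -0.47 and -0.60. Of 4 other CDK inhibitors 1 fell, Cdkn2d (p19, -0.53, limma's adjusted p = 0.0416), with a median of 0.22. In the list of D cyclin and p27 turnover 3 of 11 fell and 0 rose, with a median of -0.17. The 3 were Cks1b and Skp2, which mark p27 for destruction, at -1.28 and -0.72, and Cdc20, an activator of the anaphase-promoting complex, at -1.68. Averaged over its probe sets Skp2 differed by -0.45 and did not pass (limma's adjusted p = 0.0775). None of 8 genes for partners and chaperones of D cyclins and CDKs passed, and Cdc37, the chaperone that loads CDK4, differed by -0.34 (limma's adjusted p = 0.123).

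Of 15 measured p53 target genes 1 rose and 1 fell, with a median of 0.18. The p53 gene itself, Trp53, was on the list but not among the genes measured here. Gadd45a, a growth arrest gene, was at 7.72 to 8.67 in BLZ945 and 6.08 to 8.26 in Vehicle (1.26, limma's adjusted p = 0.00913). Aen, a nuclease, fell by 0.36 on the log2 scale in its brightest probe set, but averaged over its probe sets it differed by -0.032 (limma's adjusted p = 0.833). Cdkn1a is the best known p53 target and is not counted in that list. Of 17 regulators that link mitogens to D cyclin transcription, Myc, Ets2 and Jun among them, 1 rose and 0 fell, with a median of 0.19. That 1 was Fos, part of the AP-1 factor, at 12.90 to 13.28 in BLZ945 and 11.69 to 12.98 in Vehicle (0.49, limma's adjusted p = 0.0463). The calls on Cdkn2d, E2f6, Rbl1, Skp2, Aen and Fos were each lost when any of 10 to 12 single mice was left out, with limma's adjusted p then between 0.0512 and 0.1003. Of the 19 genes of these lists named here that passed, 3 also passed in the mice of 11.29 weeks alone, Ccne2, Lig1 and Cdc6. With the ages as covariate, which compares the agents in those same mice, Mcm5 and Cdc45 passed too, 5 in all. With the glioma marker mean as covariate 8 passed, those 5 with Ccna2, Ccnb2 and E2f8. In females alone 13 of the 19 passed, and in males alone 0 did.

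**Figure D4:**
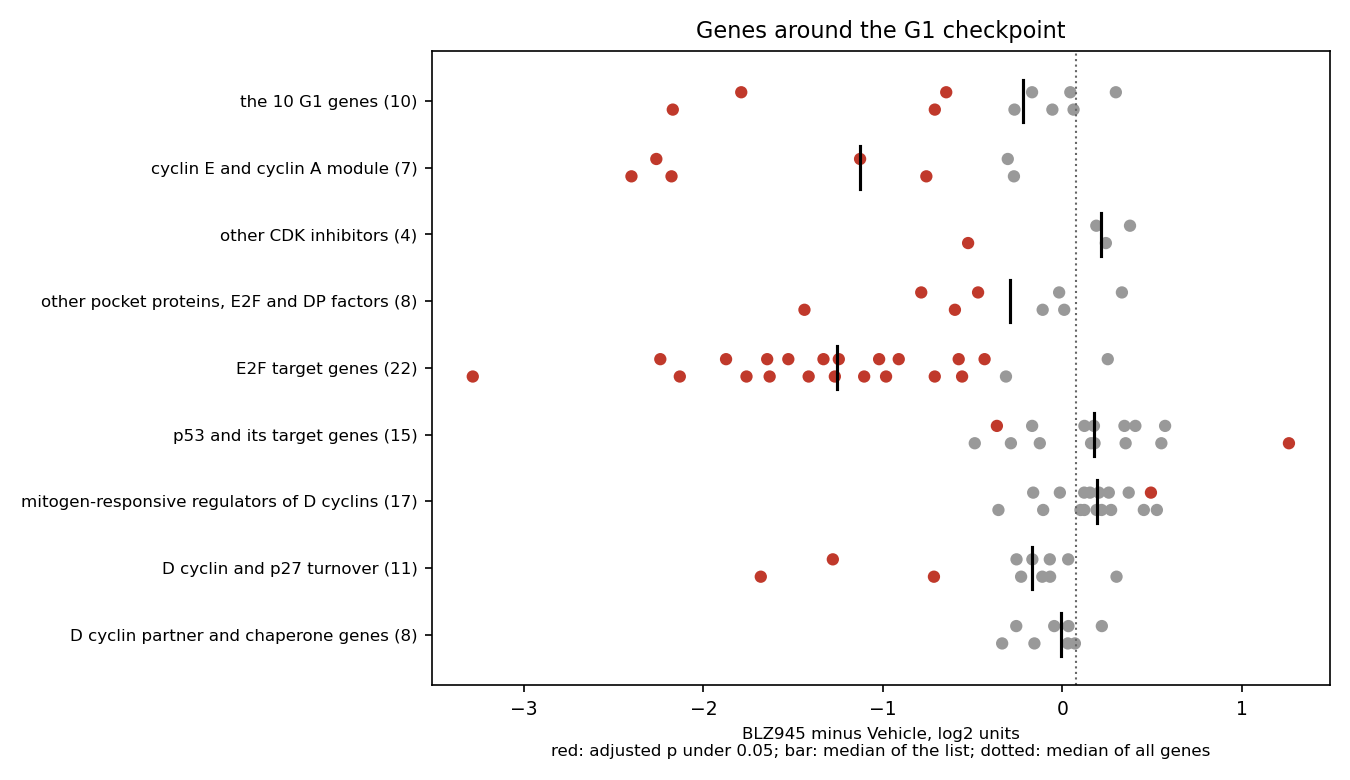
Difference BLZ945 minus Vehicle in log2 units for the 10 G1 genes and 8 lists around them, 1 point per gene with red for limma's adjusted p under 0.05, a bar at the median of each list and a dotted line at the median of all genes (0.07). The E2F targets and the cyclin E and cyclin A module have medians of -1.26 and -1.13, and the lists of p53 targets and mitogen-responsive regulators have medians of 0.18 and 0.19.

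Each of the 10 genes was set against the mean of the 22 E2F target genes within each group of 8 mice, 20 relations in all. Ccnd2 in BLZ945 had r = 0.921 (exact permutation p = 0.00104, Benjamini-Hochberg adjusted 0.0208) and rho = 0.905 (exact p = 0.00456, adjusted 0.0913). Without the 2 mice farthest from the median of the E2F target mean, r was 0.914. Of the 20 relations this was the only one past an adjusted 0.05 by Pearson's r, and 0 passed by Spearman's rho. The E2F target mean also separated the ages, at 6.02 to 6.23 in the older and 6.34 to 6.77 in the younger BLZ945 mice, and it no longer passed within ages. With the mean of each age removed, a fit added after seeing the data, r was 0.743 (exact permutation p over 576 pairings within ages = 0.0799, adjusted over the 10 genes 0.799). In Vehicle, Ccnd2 had r = 0.083 and rho = 0.024. Ccnd1 in Vehicle had r = 0.805 (exact permutation p = 0.0128, adjusted 0.128) and rho = 0.857 (exact p = 0.0107, adjusted 0.107), and in BLZ945 r was -0.055. Cdkn2c in Vehicle had r = 0.803 (exact permutation p = 0.0225, adjusted 0.150) and rho = 0.667 (exact p = 0.0831, adjusted 0.554), and in BLZ945 r was 0.192. These differences between the groups were not tested.

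**Figure D5:**
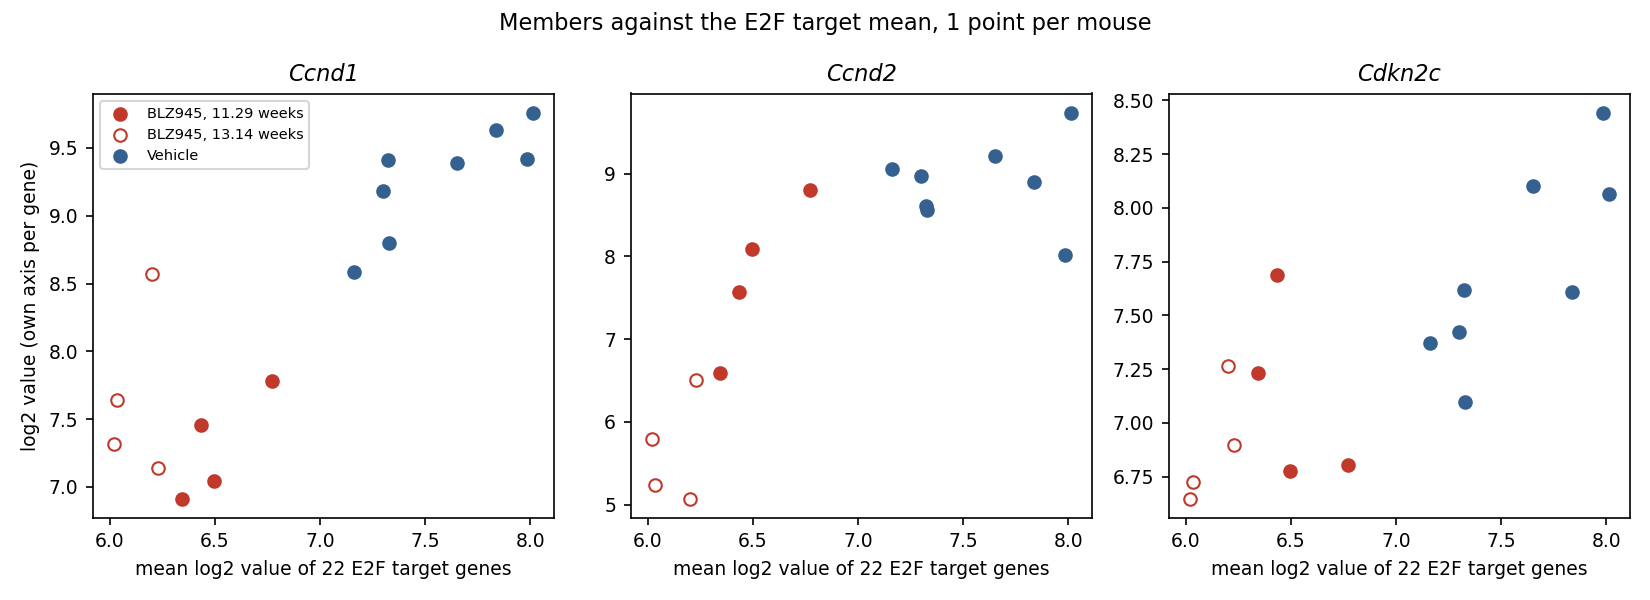
Log2 level of Ccnd1, Ccnd2 and Cdkn2c (vertical axes) against the mean log2 level of 22 E2F target genes (horizontal axes), 1 point per mouse. BLZ945 and Vehicle are in different colours, with open points for the BLZ945 mice of 13.14 weeks. In BLZ945 the Ccnd2 points run with the E2F target mean (r = 0.921). In Vehicle r was 0.805 for Ccnd1 and 0.803 for Cdkn2c, and neither passed after adjustment.

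The genes whose values followed each fallen gene most closely were found over 16 mice after the mean of each group had been subtracted, as Pearson's r without a test. For Ccnd1 they were Mlf1 (r = 0.87), Ptpn14 (0.87) and Abca8b (0.82). For Ccnd2 they were B3gnt5 (0.90), Tmpo (0.87) and Cdh1 (0.87), of which Cdh1 fell by 2.68 on the log2 scale. For Cdk4 they were Pebp1 (0.93), Crtap (0.93) and Kdelr2 (0.88). For Cdkn2c they were Cks1b (0.91), C1qtnf6 (0.87) and Mastl (0.84).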

How the data were processed

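Sorted tumour macrophage RNA (75 ng per mouse, amplified with a 3' in vitro transcription kit, per the labels' protocols) was measured on 16 arrays. The authors' deposited values are on the log2 scale, 1 per probe set and array. GCOS 1.4 and RMA are named in the submitters' processing notes, with no step given for either. RMA corrects background, makes arrays comparable and combines the probes of a set, and it compresses small signals. Intensities were not analysed here, so background calls could not be made, and precision is limited by the number of arrays.

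Probe sets were named through the platform annotation: 20393 of 22690 hold exactly 1 symbol, 691 several and 1606 none, and 0 symbols were altered by lookup in the RefSeq gene table. Per gene the probe set with the highest mean was kept. Groups follow the labelled agent, 8 mice each. BLZ945 minus Vehicle was tested over 12394 genes with lmFit and eBayes of limma 3.58.1 (R 4.3.3), without covariates. Other fits tested sex, its interaction with the agent, age and tumour volume. The 10 genes, the gene lists and the tests were chosen with earlier results of these data known. Named genes are the 10, of each list at most 4 passing genes taken by p (2 genes where none passed), and the 3 genes most alike to each fallen gene. On simulated data for this comparison limma recovered 35.8% of genes changed by 0.5, 89.6% by 1 and 98.5% by 2 log2 units. There were 6 false calls among the unchanged genes of the 12394 fitted. The simulated noise was normal, independent between genes and equal in spread in both groups. Real genes can differ from this, as Ccnd2 did, with an SD in BLZ945 2.66 times that in Vehicle. Promoter windows come from RefSeq on GRCm38.p6, and no promoter was used for Ccnd1, Ccnd2 and Rb1.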

Additional observations from a re-analysis of the deposited data

Results flagged for a closer look

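Ccnd3 in Vehicle replicate 2, at 7.48, lay far above the other Vehicle mice. Its gap to the next mouse was 0.551 of the group's range, over Dixon's critical value for 8 mice. In all, 20 groups of 8 were examined this way, 1 was picked out, and chance picks out about 1 in 20. The difference of Ccnd3 did not pass the test with or without this mouse.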

How the results depend on the processing

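The differences of the 10 genes were recomputed in 329 combinations of gene and setting. Of these, 295 kept their direction and side of the threshold, 19 kept the direction but lost the call, 0 gained one and 15 changed sign. All 15 belong to genes that did not pass in the first place. Ccnd1, Ccnd2 and Cdk4 kept their calls in 16 of 16 fits that left out 1 mouse, at -1.94 to -1.71, -2.47 to -1.94 and -0.72 to -0.59, and Cdkn2c in 11 of 16, at -0.81 to -0.61. Passing counts fell to 215 genes and 2 of the 10 with age as covariate, 261 and 1 with the glioma marker mean, 89 and 1 in mice of 11.29 weeks, 393 and 2 in females, and 2 and 0 in males, where fewer mice were tested in the last 3 fits. With the array SD as covariate 1624 genes passed. The age fit, too, could contrast BLZ945 with Vehicle only at 11.29 weeks, the only age found in both groups. It gave the 10 genes the same differences as the fit to that age alone, so its lower count is not a measure of an age effect. Beyond this, the cause of the lower counts with the age and glioma covariates was not tested. Leaving out 1 mouse gave 710 to 1188 genes and 3 to 4 of the 10. With the replicate block 873 genes and 4 of the 10 passed. Deviations of same-numbered mice correlated from -0.48 to 0.39, and 2 of 8 BLZ945 mice correlated best with the Vehicle mouse of their own number, which does not pair the mice. The block changed no call on the 10. For age within BLZ945, averaging probe sets gave 1 gene and leaving out a mouse 0 to 16. With age means removed, r of Ccnd2 with the E2F target mean in BLZ945 was 0.743 and did not pass. Sign changes were Ccnd3 at -0.19 with the glioma covariate, -0.091 in females and -0.080 without BLZ945 replicate 6 (range over single mice -0.080 to 0.15), and Cdk6 at -0.21 with the glioma covariate. Cdkn1a was at 0.063 with scaled arrays and 0.20 in females, and from -0.15 to 0.06 over single mice (0.02 without Vehicle replicate 2, 0.056 without BLZ945 replicate 3 and 0.0043 without BLZ945 replicate 8). Cdkn1b was at 0.033 with averaged probe sets, 0.039 with the array SD and 0.046 in males. Rb1 was at -0.32 in females and from -0.05 to 0.12 over single mice (-0.01 without Vehicle replicate 2, -0.050 without BLZ945 replicate 2). By the simulation, which assumed equal spread in both groups, differences of about 0.5 log2 units are at the limit of what 8 mice a group can show. Without intensities the signal over background of the dim Cdk6 probe set is unknown.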
